A study of Penicillium oxalicum with 24 samples.

Results

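The gene *creA* of the filamentous fungus *Penicillium oxalicum* (PDE_03168) encodes the carbon catabolite repressor CreA. It was taken as the row of that identifier in the deposited table, 1 gene of 9832. Of the 24 RNA-seq libraries, 15 came from the 5 groups of cultures that carry the gene, and the other 9 came from the 3 groups in which it was deleted and serve as a check of the labels. Its coding sequence is 1254 bases long in the table, which is 417 codons without the stop codon.

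Every strain was the wild-type strain 114-2 or derived from it, each group had 3 cultures labelled as biological triplicates, and every culture was pregrown on glucose for 22 h and harvested after 4 h in the final medium. The mutants were all sampled on 2% cellulose. They were Δ*amyR*, Δ*clrB* and 3 strains without *creA*, namely the single mutant Δ*creA*, the double mutant Δ*creA*-Δ*clrB* and the overexpression strain Δ*creA-gpdA*(p)::*clrB*. The wild type was sampled on 2% cellulose, on 2% glucose and without a carbon source. A 2 h step without carbon source before the final medium is given in the labels of all groups but the wild type without carbon source, for which it stands in the methods of the study. In the *creA*-deleted strains a hygromycin resistance cassette (*hph*) took the place of the reading frame, and in Δ*creA-gpdA*(p)::*clrB* an introduced *clrB* construct is driven by the *gpdA* promoter of *Aspergillus nidulans*. The libraries held 6.95 to 8.58 M reads on genes (M, 1e6), and 9176 genes were high enough to be tested.

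CreA is a zinc-finger protein of the C2H2 type and the counterpart in filamentous fungi of yeast Mig1. In filamentous fungi it binds the promoters of genes for the use of poorer carbon sources and represses them while glucose or another preferred sugar is present, which is called carbon catabolite repression. Genes for cellulases and for their activators are among its known targets, and fungi without it make more cellulase. How far CreA acts also depends on where the protein is in the cell and how stable it is, and these data measure its RNA only.

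The *creA* transcript was abundant in every group that carries the gene and lowest on glucose. Levels are given as RPKM, reads per kilobase of coding length and per M reads on genes. In wild type on glucose, *creA* had 93.2, 74.6 and 75.6 RPKM. In wild type without carbon source it had 234, 288 and 270 RPKM. The glucose cultures were thus all below the cultures without carbon source, and the highest glucose value was far from the lowest starved one. On cellulose, Δ*amyR* had 394, 438 and 328 RPKM and Δ*clrB* had 210, 209 and 200 RPKM. Wild type on cellulose had 371, 313 and 307 RPKM, all above both other wild-type groups. All Δ*clrB* cultures were below all wild-type cultures on cellulose, while the lowest Δ*amyR* culture was below the highest wild-type culture, so that these last 2 groups overlapped.

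**Figure D1:**
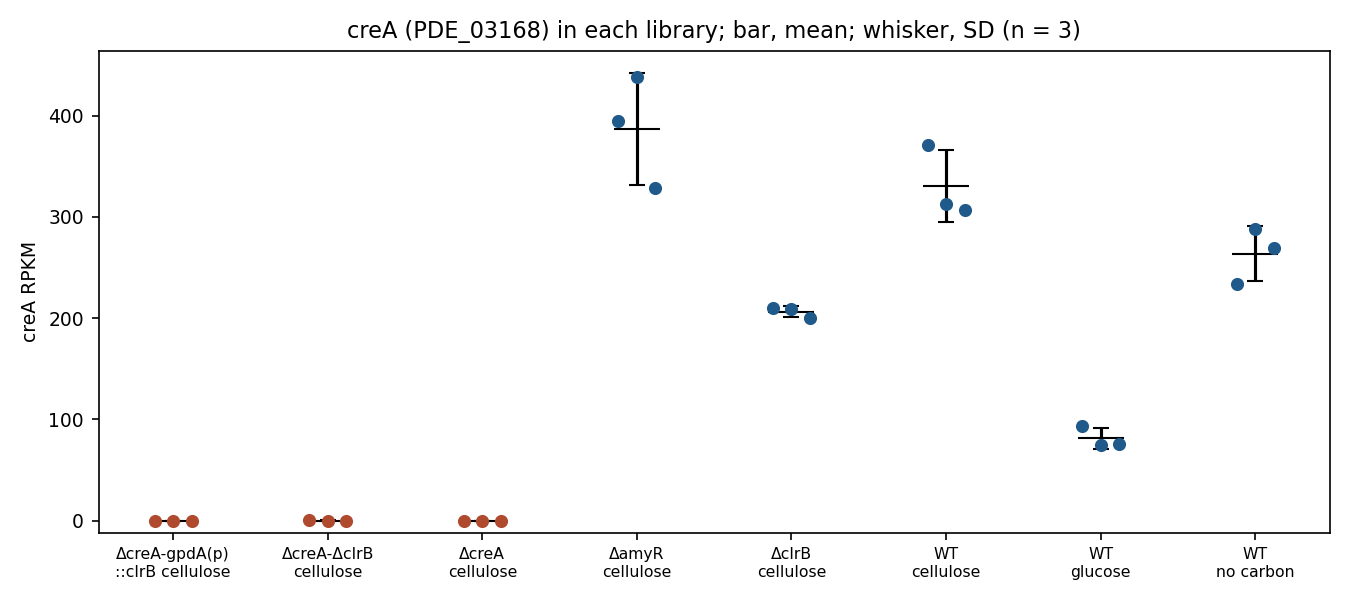
RPKM of *creA* on a linear axis in each of the 24 libraries (points), with the mean (bar) and the SD (whisker, n = 3) of each group. The 9 libraries of the *creA*-deleted strains (red) lie at 0 to 0.2 RPKM, the glucose libraries at 74.6 to 93.2 RPKM and the other 12 libraries with the gene at 200 to 438 RPKM.

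In ascending order, the group means were 81.1 ± 10.5 RPKM in wild type on glucose, 206.3 ± 5.48 RPKM in Δ*clrB*, 263.7 ± 27.3 RPKM in wild type without carbon source, 330.2 ± 35.5 RPKM in wild type on cellulose and 386.8 ± 55.3 RPKM in Δ*amyR* (SD, n = 3 each). The coefficient of variation among the 3 cultures of a group ran from 2.66% in Δ*clrB* to 14.3% in Δ*amyR*. On glucose, 78.3% of the 9176 genes tested had a lower mean RPKM than *creA*, against 93.4% without carbon source. The share was 96.4% in Δ*amyR* and 92.2% in Δ*clrB*, against 95.03% in wild type on cellulose. Even at its lowest, *creA* was thus above most genes by level per length. Reads covered 98.96% to 99.84% of its coding sequence in all 15 libraries, so that the lower level on glucose did not come with an uncovered stretch of the gene. In bulk mycelium, less RNA in each cell and fewer cells with the transcript cannot be told apart.

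The deletions were visible in the reads. The overexpression strain had no read on *creA* in any library, the double mutant had 2, 1 and 0 reads and the single mutant had 1 in each library, against 3601, 3016 and 2894 reads in wild type on cellulose. A single read covered 50 bases, 3.99% of the coding sequence. With each deleted library set to a floor of 3 reads, and with counts scaled by TMM (a method that sets a library's scale from the bulk of its genes), *creA* was at least 695-fold lower in the overexpression strain, at least 793-fold lower in the double mutant and at least 810-fold lower in the single mutant than in wild type on cellulose. Against Δ*clrB*, the Δ*creA*-Δ*clrB* strain was at least 563-fold lower. These bounds cover counting error in the deleted libraries only.

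The carbon source was compared first within the wild type. On glucose *creA* fell by 1.49 on the log2 scale relative to medium without carbon source (SE 0.16, 95% interval -1.83 to -1.15, adjusted p = 1.96e-07), a level 0.356 times that of the starved cultures. The test was edgeR's quasi-likelihood test on TMM-scaled counts of all 24 libraries, with p-values adjusted by Benjamini-Hochberg over the 9176 genes and a threshold of 0.05. In this comparison many genes moved: 32.7% of all genes tested were lower on glucose and 36.2% higher (38.4% and 28.2% with libraries scaled by their totals), and 29.6% had a larger change in either direction than *creA*. On cellulose *creA* was 4.02 times its level on glucose, a log2 fold change of 2.01 (SE 0.17, interval 1.66 to 2.35, adjusted p = 4.09e-09), in a comparison in which 33.6% of genes were higher and 36.9% lower. Both changes were beyond a log2 fold change of 1 in either direction and passed the test under all 15 alternatives run, at -1.70 to -1.42 for glucose against no carbon source and at 1.90 to 2.14 for cellulose against glucose.

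The difference between cellulose and no carbon source was smaller. *creA* was 1.43 times as high in wild type on cellulose as without carbon source, a log2 fold change of 0.52 (SE 0.16, interval 0.18 to 0.85, adjusted p = 0.0250 by edgeR), while 11.6% of all genes were called higher and 12.6% lower (5.09% and 19.6% with library totals). All 3 cellulose cultures were above all 3 starved cultures, both by RPKM and by TMM-scaled counts. The call depended on the scaling and on single libraries. With libraries scaled by their totals, as RPKM values are, the change was 0.32 (adjusted p = 0.136), and the median of all genes was then -0.18. A change of scale shifts all genes alike, so the distance of *creA* above that median, 0.51, is fixed by construction. Leaving out wild type on cellulose replicate 1 gave 0.41 (adjusted p = 0.119), and leaving out replicate 1, 2 or 3 of the wild type without carbon source gave 0.48, 0.55 and 0.52 (adjusted p = 0.0743, 0.0505 and 0.0698).

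The deletions of the regulators were compared with wild type on the same medium. ClrB is an activator that many cellulase genes need in this fungus, and AmyR is the activator of amylase genes. In Δ*clrB*, *creA* was 0.710 times its wild-type level, a log2 fold change of -0.49 (SE 0.16, interval -0.83 to -0.16). This did not pass over all genes by edgeR (adjusted p = 0.0859), in a comparison that called 1.95% of genes lower and 2.68% higher (549 and 165 genes with library totals). It passed under 4 of the 15 alternatives run. These were DESeq2 (-0.49, adjusted p = 0.0174), a fit of only the 15 libraries that carry *creA* (-0.51, adjusted p = 0.0339), libraries scaled by their totals (-0.68, adjusted p = 0.0131) and limma on log2(RPKM + 1) (-0.67, adjusted p = 0.00218). By edgeR it did not pass with median-ratio scaling (adjusted p = 0.0876) or with any single library left out (adjusted p = 0.116 to 0.269). All 3 Δ*clrB* cultures were below all 3 wild-type cultures under both scalings.

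In Δ*amyR*, *creA* was 1.56 times its wild-type level by TMM-scaled counts, a log2 fold change of 0.64 (SE 0.16, interval 0.31 to 0.98, adjusted p = 0.00878 by edgeR), beside 9.75% of all genes called higher and 9.84% lower. The TMM factors were 0.884 to 0.923 for Δ*amyR* and 1.18 to 1.23 for wild type on the same medium, and the size of the difference moved with the scale. Scaled by library totals it was 0.23 (adjusted p = 0.241), with the median of all genes at -0.43 and with 3.26% of genes called higher and 39.2% lower. The distance of *creA* above that median was 0.66, which a change of scale leaves as it is. The TMM-scaled counts of all 3 Δ*amyR* cultures were above those of all 3 wild-type cultures, against 2 of 3 by RPKM. The call was lost without Δ*amyR* replicate 2 (0.53, adjusted p = 0.0580) and without wild type on cellulose replicate 3 (0.58, adjusted p = 0.0501).

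Among the 3 groups on cellulose that carry *creA*, Δ*amyR* and Δ*clrB* stood furthest apart. *creA* was 2.20 times as high in Δ*amyR* as in Δ*clrB*, a log2 fold change of 1.14 (SE 0.16, interval 0.80 to 1.47, adjusted p = 1.64e-04 by edgeR), and it passed under all 15 alternatives, at 0.89 to 1.26. Here 11.2% of all genes were called in either direction, and 6.19% had a larger change than *creA* in either direction, the smallest share among the 6 main comparisons. The mutants were not sampled on glucose or without carbon source. The comparisons share libraries, each group of 3 entering several of them, so they are not independent of one another.

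The other 4 pairs of groups, which differ in both strain and medium, were added to complete the order of levels. *creA* was higher in Δ*amyR* on cellulose than in wild type on glucose (2.65, SE 0.17, adjusted p = 9.29e-11 by edgeR) and without carbon source (1.16, SE 0.16, adjusted p = 2.10e-05), comparisons in which 73.8% and 43.9% of genes were called in either direction. It was also higher in Δ*clrB* on cellulose than in wild type on glucose (1.51, SE 0.16, adjusted p = 1.34e-07, 72.4% of genes called). Δ*clrB* on cellulose and wild type without carbon source were the neighbours in the order that did not pass in the main edgeR fit. The log2 fold change was 0.02 (SE 0.16, interval -0.31 to 0.36, adjusted p = 0.932, 33.2% of genes called), and it was -0.35 with libraries scaled by their totals (adjusted p = 0.0726). Other neighbours were not firmly separated either. Wild type on cellulose against no carbon source passed under 8 of 15 alternatives, and Δ*amyR* against wild type on cellulose under 10 of 15. By RPKM all Δ*clrB* cultures were below all starved cultures, and by TMM-scaled counts the groups overlapped, so that the order of these 2 groups depends on the scale.

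**Figure D2:**
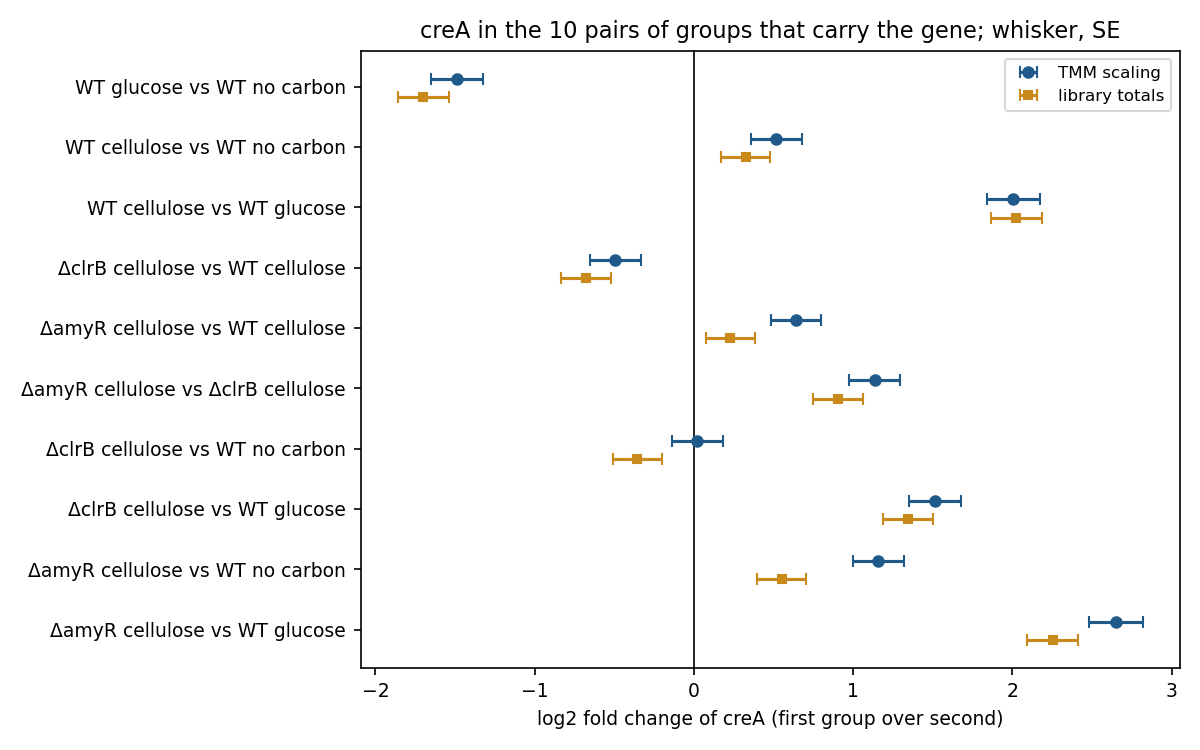
Log2 fold change of *creA* (x axis) in the 10 pairs of the 5 groups that carry the gene (y axis, first group over second), with TMM scaling (blue circles) and with scaling by library totals (orange squares); whiskers are SE. Of the changes that involve glucose, the nearest to 0 is that of Δ*clrB* with library totals, at 1.35, and Δ*amyR* against wild type on cellulose moves to 0.23, against 0.64 with TMM.

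Next to *creA*, 19 other regulator genes were read in the same fits. They come from the screen of transcription factor deletions in the study. On glucose against no carbon source, 8 of the 19 fell and 5 rose (10 and 3 with library totals), beside 32.7% of all genes lower and 36.2% higher, so that about as large a share of the regulators passed as of all genes. Their median log2 fold change was -0.38, against 0.05 for all genes. The activator genes fell with *creA*: *amyR* by 2.51 (SE 0.20), *clrB* by 2.49 (SE 0.19) and *xlnR*, whose product activates xylanase and cellulase genes, by 1.23 (SE 0.23). The *clrB* paralogue *clrB-2* went the other way and rose (1.20, SE 0.18). Ace1, known in *Trichoderma reesei* as a repressor of cellulase and xylanase genes, had a transcript that fell by 0.42 (SE 0.18, adjusted p = 0.0493 by edgeR). By estimate the fall of *creA* thus lay between those of *clrB* and *xlnR*. These fits did not test differences between genes, and the ratio of *creA* to *xlnR*, given below, overlapped between these media.

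On cellulose against glucose, 9 of the 19 rose and 4 fell, beside 33.6% of all genes higher and 36.9% lower (median 0.39, against -0.08 for all genes). The *clrB*, *amyR* and *xlnR* transcripts had larger estimates than *creA*, with log2 fold changes of 3.33 (SE 0.19), 2.56 (SE 0.20) and 2.38 (SE 0.23). The homeobox gene PDE_07199 had nearly the same estimate (1.97, SE 0.19). Smaller rises were those of the zinc-finger gene PDE_08462 (1.45, SE 0.31), *clrB-2* (1.14, SE 0.17), *ace1* (0.98, SE 0.18) and *stuA*, a gene of the developmental regulator family of that name (0.89, SE 0.15). Differences between genes were not tested in these fits. The bromodomain gene PDE_01512 fell by 1.02 (SE 0.14). On cellulose against no carbon source, 6 of the 19 rose and 1 fell, beside 11.6% of all genes higher and 12.6% lower. With libraries scaled by their totals the counts were 4 and 3, beside 5.09% of all genes higher and 19.6% lower. Here *clrB-2* rose most (2.34, SE 0.18), followed by *xlnR* (1.15, SE 0.22), PDE_07199 (0.97, SE 0.18) and *clrB* (0.84, SE 0.18), while *amyR* had a log2 fold change of 0.05 (SE 0.19) that did not pass.

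**Figure D3:**
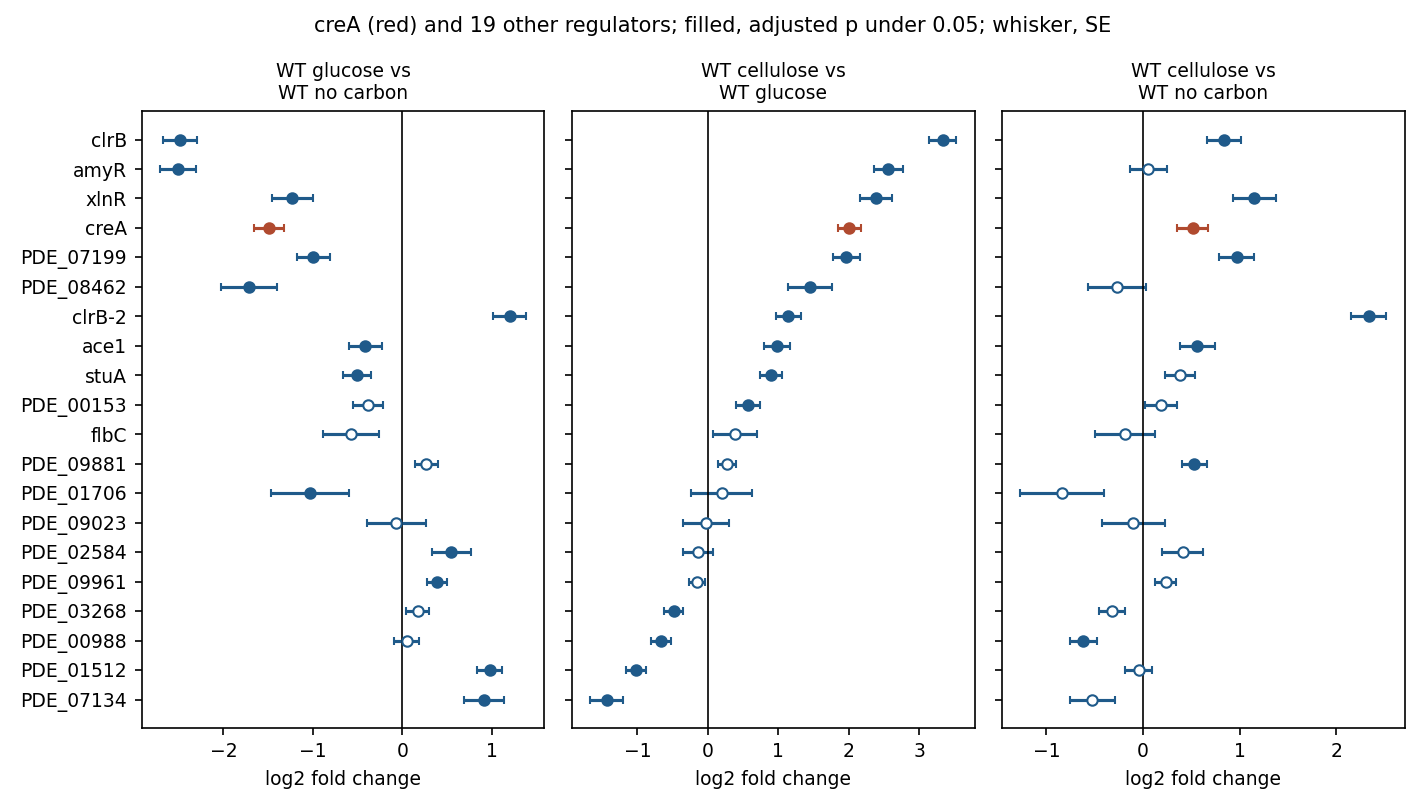
Log2 fold change (x axis, whiskers SE) of *creA* (red) and the 19 other regulators (blue, y axis) in 3 comparisons within the wild type; filled points passed the test at an adjusted p under 0.05. *creA* lies at -1.49, 2.01 and 0.52 and in each panel on the same side of 0 as *clrB* and *xlnR*.

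The other regulators were then read in the deletion strains on cellulose. In Δ*clrB*, leaving out the deleted gene, 1 of 18 regulators fell, *clrB-2* (by 1.05, SE 0.17), and 0 rose by edgeR, beside 1.95% of all genes lower and 2.68% higher. At an unadjusted p under 0.05, 2 were higher, and 1 rose by DESeq2. Without Δ*clrB* replicate 2 the number that passed was 2. In Δ*amyR*, leaving out *amyR*, 8 of 18 rose and 0 fell (also 0 at an unadjusted p under 0.05 and 0 by DESeq2), with a median of 0.42 against -0.02 for all genes, of which 9.75% were higher and 9.84% lower. Scaled by library totals, *clrB-2* and PDE_09023 rose and PDE_00988 fell, and the median was 0.0029 beside -0.43 for all genes. Of all genes 3.26% were then higher and 39.2% lower. The number that passed also rested on single libraries: it was 3 without wild type on cellulose replicate 3, and 4 without its replicate 1 or without Δ*amyR* replicate 1 or 2. The largest rise was that of *clrB-2* (2.08, SE 0.17), which also passed with library totals; *xlnR* (0.73, SE 0.22), *stuA* (0.75, SE 0.15), PDE_08462 (1.05, SE 0.30) and PDE_01512 (0.59, SE 0.14) passed with TMM and not with library totals, as *creA* did. The *clrB* transcript had a log2 fold change of 0.42 and *ace1* of 0.41 in Δ*amyR*, and neither passed. Against Δ*clrB*, 4 of 17 regulators were higher in Δ*amyR* and 0 lower by edgeR (0 also at an unadjusted p under 0.05 and by DESeq2), beside 11.2% of all genes called in either direction: *clrB-2* (3.13, SE 0.18), PDE_08462 (0.94, SE 0.30, not passing with library totals), *stuA* (0.89, SE 0.15) and *xlnR* (0.87, SE 0.22). The number was 2 without Δ*amyR* replicate 1 or 2 or without Δ*clrB* replicate 1.

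Ratios of *creA* to a partner gene in the same library do not depend on how libraries are scaled. By RPKM, *creA* was 3.51 ± 0.263 times the level of *clrB* in Δ*amyR* on cellulose, against 3.02 ± 0.385 times in wild type on cellulose (SD, n = 3 each). In wild type it was 7.63 ± 1.75 times on glucose, against 3.80 ± 0.420 times without carbon source. All 3 glucose ratios were above all 6 other wild-type ratios, so that *creA* fell less than its partner on glucose. The ratio to *amyR* was 2.30 ± 0.326 on glucose, 1.56 ± 0.151 on cellulose and 1.14 ± 0.124 without carbon source. The ratio to *xlnR* was 8.91 ± 1.74 on glucose, 6.90 ± 1.39 on cellulose and 10.6 ± 1.07 without carbon source, with overlap between glucose and each of the other groups. The ratio to *ace1* ran the other way, with 0.630 to 0.775 on glucose, 1.28 to 1.76 on cellulose and 1.26 to 1.74 without carbon source in the 3 libraries of each wild-type group: in wild type *creA* was the lower of these repressor genes on glucose and the higher in both other media. In Δ*clrB* on cellulose *creA* was again the lower, at 0.769 to 0.995 times *ace1*. With 3 against 3 libraries an exact permutation test cannot give a two-sided p under 0.10, which was reached by 18 of the 28 ratio comparisons computed (0.156 after adjustment over the 28), among them both glucose comparisons of the *clrB*, *amyR* and *ace1* ratios and cellulose against no carbon source for *amyR* and *xlnR*.

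On cellulose the mutants were compared with wild type by the same ratios. In Δ*clrB*, the ratios to *ace1* (log2 difference -0.65) and to *xlnR* (-0.35) were below those of wild type in all 3 libraries, and the ratio to *clrB-2*, whose own transcript fell, was above them in all 3 (0.57); for each the exact permutation p was 0.10, the smallest possible. The ratio to *amyR* overlapped that of wild type (-0.14, exact permutation p = 0.60). In Δ*amyR*, the ratio to *clrB-2* was below that of wild type in all 3 libraries (-1.45, exact permutation p = 0.10), and the ratios to *ace1* (0.23), *clrB* (0.22) and *xlnR* (-0.08) overlapped those of wild type.

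Actin (PDE_01092), the reference gene of the quantitative PCR in the study, was added as a partner after the data were seen. The ratio of *creA* to actin was 0.0635 ± 0.0111 on glucose, against 0.249 ± 0.0104 without carbon source. On cellulose it was 0.334 ± 0.0490 in Δ*amyR* and 0.209 ± 0.0149 in Δ*clrB*, against 0.242 ± 0.0455 in wild type. Actin itself was not constant by RPKM, which rests on library totals. Its changes were not tested and were not read with TMM, and their size and direction can depend on the scaling. In wild type it had 1058 ± 76.5 RPKM without carbon source and 1285 ± 54.1 RPKM on glucose. On cellulose actin had 1160 ± 78.9 RPKM in Δ*amyR* and 991 ± 93.8 RPKM in Δ*clrB*, against 1376 ± 104 RPKM in wild type. The ratios thus also carry the changes of actin. All 3 Δ*amyR* ratios were above all 3 wild-type ratios (log2 difference 0.47, exact permutation p = 0.10, the smallest possible), while the Δ*clrB* ratios to actin overlapped those of wild type (-0.20, exact permutation p = 0.30). Relative to actin, wild type on cellulose and without carbon source overlapped too (-0.05, exact permutation p = 0.80). With a smallest possible p of 0.10, none of these ratio comparisons could pass a threshold of 0.05, before or after adjustment over the 28.

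The genes with the profile most like that of *creA* were sought by the root mean square (RMS) difference between the profiles of group means of log2(CPM + 1), CPM being TMM-scaled counts per M reads, each centred on its mean over the 5 groups that carry *creA*. The 10 nearest of 9175 genes lay within 0.168 to 0.223, against 0.87 for a flat profile and a median of 0.96 over all genes: PDE_02166, PDE_06088, PDE_02795, PDE_06419, PDE_05655, PDE_02294, PDE_07788, PDE_09434, PDE_08659 and PDE_04070. Nothing in the sources used here names their products, although PDE_06088 was among the transcription factor genes for which deletion primers were made. The nearest, PDE_02166, had 52.4 RPKM in Δ*amyR*, 32.4 RPKM in Δ*clrB*, 38.9 RPKM in wild type on cellulose, 8.58 RPKM on glucose and 33.4 RPKM without carbon source, the same order as *creA*. The most abundant, PDE_05655, had 12177 RPKM in Δ*amyR* and 2503 RPKM in wild type on glucose. Of the 10, 9 were also among the 10 nearest when RPKM was used without TMM. This is a description of 5 means from 15 libraries, and many genes that are low on glucose come close: 73 lay within 0.3. Of the other regulators PDE_08462 was the nearest, the 30th of all genes with an RMS difference of 0.256, followed by PDE_07199 (0.337) and *xlnR* (0.339).

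The 5 genes nearest to the mirror image of the *creA* profile were PDE_07466, PDE_08713, PDE_01011, PDE_08337 and PDE_04319, at RMS differences of 0.162 to 0.186. PDE_07466, for example, had 13.4 RPKM in Δ*amyR*, 23.4 RPKM in Δ*clrB*, 23.8 RPKM in wild type on cellulose, 95.4 RPKM on glucose and 38.1 RPKM without carbon source. None of these 5 was among the 5 nearest with RPKM used without TMM, so their identity rests on the scaling.

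**Figure D4:**
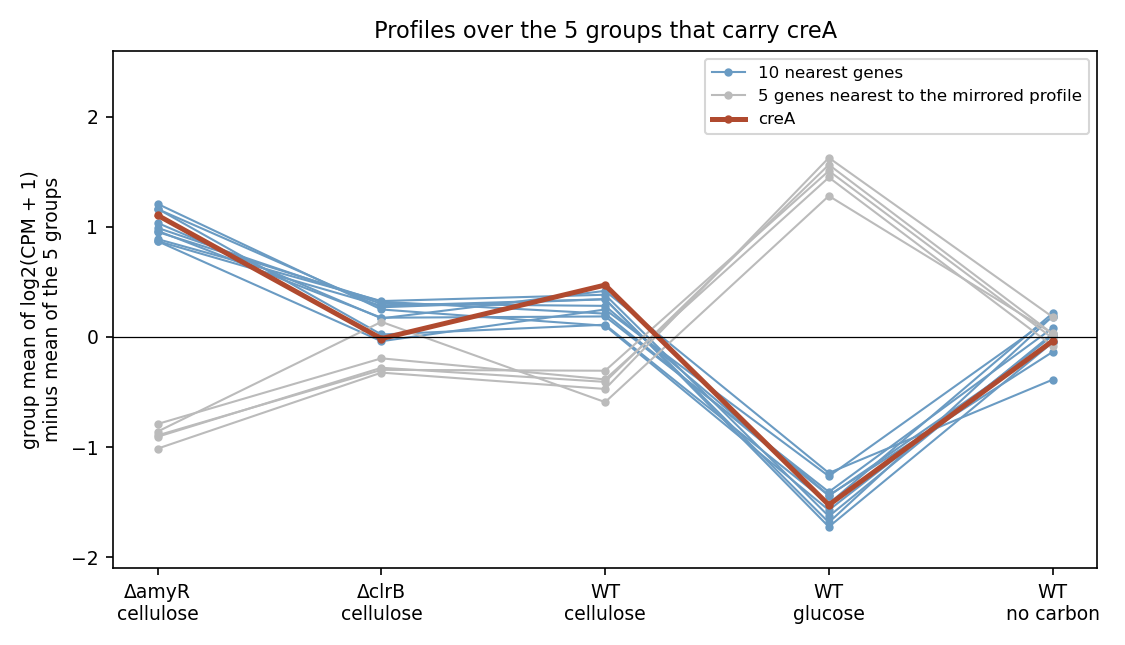
Centred group means of log2(CPM + 1) (y axis) in the 5 groups that carry *creA* (x axis) for *creA* (red), the 10 genes with the nearest profiles (blue) and the 5 nearest to its mirror image (grey). *creA* is 1.11 above its own mean in Δ*amyR* and lowest on glucose, as are the 10 nearest genes, which were chosen for this.

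The loci with the nearest identifiers, PDE_03163 to PDE_03173, were examined because the deletion cassette replaced *creA* between them; the order of the identifiers was taken as the order of the genes and was not checked on an annotation. PDE_03173 was too low to be tested. On glucose against no carbon source 4 of the 9 tested neighbours fell and 5 rose, beside 32.7% of all genes lower and 36.2% higher. On cellulose against glucose 4 rose and 4 fell, beside 33.6% of all genes higher and 36.9% lower. The next identifier below *creA*, PDE_03167, a short gene of 339 bases listed as a hypothetical protein, was among those that moved with *creA* across the carbon sources. It had 2.53, 2.70 and 2.54 RPKM in wild type on glucose, against 5.72, 8.23 and 8.07 RPKM without carbon source. With 339 bases, PDE_03167 had few reads at such levels, which makes its changes on glucose less certain. On cellulose it had 34.0, 35.3 and 27.2 RPKM in Δ*amyR* and 6.16, 13.2 and 5.58 RPKM in Δ*clrB*, against 23.2, 20.0 and 22.3 RPKM in wild type. All Δ*amyR* cultures were above, and all Δ*clrB* cultures below, those of wild type on cellulose. Its log2 fold changes were -1.28 (SE 0.39) on glucose against no carbon source, 1.76 (SE 0.30) on cellulose against no carbon source, 3.03 (SE 0.35) on cellulose against glucose, 0.97 (SE 0.26, adjusted p = 0.0118 by edgeR, and 0.101 with library totals) in Δ*amyR* and -1.23 (SE 0.29, adjusted p = 0.0186) in Δ*clrB*, each in the direction of *creA*. Over all 5 groups its profile was the 272nd nearest to that of *creA*, and the neighbour PDE_03164 was nearer, at rank 109.

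Where *creA* was deleted, PDE_03167 did not fall with it. It had 90.7, 64.8 and 84.2 RPKM in Δ*creA*, all above the 20.0 to 23.2 RPKM of wild type (2.33, SE 0.25, adjusted p = 1.11e-06 by edgeR). In Δ*creA*-Δ*clrB* it had 5.54, 1.91 and 6.79 RPKM, against 6.16, 13.2 and 5.58 RPKM in Δ*clrB*, groups that overlapped (-0.51, SE 0.35, adjusted p = 0.247). The next identifier above, PDE_03169, passed in neither comparison: it had log2 fold changes of -0.23 (SE 0.14) in Δ*creA* against wild type and 0.34 (SE 0.14) in Δ*creA*-Δ*clrB* against Δ*clrB*.

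Of the 9 tested neighbours PDE_03167 was the only one that passed in Δ*creA* against wild type (0 fell, by edgeR and by DESeq2 and at an unadjusted p under 0.05), where 15.1% of all genes were called higher and 12.8% lower (551 and 4125 genes with library totals). With library totals 3 others fell. In Δ*creA*-Δ*clrB* against Δ*clrB*, 24.0% of all genes were higher and 20.5% lower (12.8% and 34.2% with library totals), and 4 of the 9 neighbours passed: PDE_03163 (1.89, SE 0.31), PDE_03172 (0.90, SE 0.26) and PDE_03165 (0.86, SE 0.23) were higher and PDE_03164 was lower (-0.48, SE 0.12). With library totals 2 were higher and 2 lower. The values of PDE_03163 were 26.0, 98.3 and 34.7 RPKM in Δ*creA*-Δ*clrB*, against 19.7, 16.1 and 15.5 RPKM in Δ*clrB*, with a single Δ*creA*-Δ*clrB* culture far above the rest. The values of PDE_03172 overlapped by RPKM between the groups. In a fit of only the compared groups 1 neighbour passed in Δ*creA*-Δ*clrB* and 5 in Δ*creA*.

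The regulators were also read in the *creA* deletion. In Δ*creA* against wild type, 4 of the 19 rose and 1 fell, beside 15.1% of all genes higher and 12.8% lower, so that the share of regulators that passed was near that of all genes. *clrB-2* (1.59, SE 0.17), PDE_07199 (0.86, SE 0.18), *xlnR* (0.72, SE 0.22) and PDE_09961, a heat-shock factor family gene (0.33, SE 0.11, but -0.14 with library totals), were higher and PDE_07134 was lower (-1.05, SE 0.26). With library totals 1 rose, *clrB-2*, and 8 fell. The *clrB* transcript had 106, 103 and 104 RPKM in Δ*creA*, against 108, 107 and 114 RPKM in wild type, and its log2 fold change of 0.39 with TMM did not pass. By RPKM all its Δ*creA* values were below all its wild-type values, so its direction depended on the scale. The *amyR* transcript had 119, 131 and 124 RPKM in Δ*creA*, against 214, 210 and 209 RPKM in wild type, and its log2 fold change was -0.29 with TMM, which did not pass, and -0.76 with library totals (adjusted p = 0.00306 by edgeR). In Δ*creA*-Δ*clrB* against Δ*clrB*, 3 of 18 regulators were higher and 2 lower, beside 24.0% of all genes higher and 20.5% lower. With library totals 2 were higher and 5 lower, beside 12.8% of all genes higher and 34.2% lower. Among the 2 lower with TMM was *clrB-2* (-0.73, SE 0.19), and the difference between the backgrounds was not tested.

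Finally, 19 genes for plant cell wall degrading enzymes, 15 for cellulases and 4 for β-glucosidases, were read with and without *creA*; they are genes the study discusses for this response and are not independent evidence of its direction. In Δ*creA* against wild type 14 of the 19 rose and 0 fell (0 by DESeq2 as well, and 1 at an unadjusted p under 0.05), with a median log2 fold change of 3.05 against 0.01 for all genes, of which 15.1% were higher and 12.8% lower. With library totals 13 rose and 2 fell. The highest were the cellulase genes PDE_07124 (6.79, SE 0.42) and PDE_05633 (6.23, SE 0.41), and the lowest were the cellulase genes PDE_06768 (-0.62, SE 0.26) and PDE_03711 (-0.03, SE 0.22), which did not pass. PDE_05633 had 2481, 1449 and 2353 RPKM in Δ*creA*, against 55.8, 23.4 and 34.7 RPKM in wild type.

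The same genes were read in the background without *clrB*. In Δ*creA*-Δ*clrB* against Δ*clrB* 5 of the 19 rose and 3 fell, with a median of 0.30 against 0.02 for all genes. These shares were near those of all genes, of which 24.0% were higher and 20.5% lower. With library totals 4 rose and 4 fell, beside 12.8% of all genes higher and 34.2% lower. PDE_05633 again rose (3.73, SE 0.58), now to 6.01, 4.66 and 7.68 RPKM in Δ*creA*-Δ*clrB*, against 0.174, 0.959 and 0.504 RPKM in Δ*clrB*. Its Δ*clrB* values were all below 1 RPKM and near the floor, so the size of this rise is uncertain. PDE_00507 was the next highest (2.82, SE 0.34). The lowest were PDE_04251 (-0.73, SE 0.24), a β-glucosidase gene, and PDE_09267 (-0.55, SE 0.16). PDE_07124, the gene with the highest value in the wild-type background, had 18.1, 12.5 and 9.26 RPKM in Δ*creA*-Δ*clrB*, against 9.82, 15.9 and 11.5 RPKM in Δ*clrB*, and did not pass (0.38, SE 0.35). The number that passed in either direction was 5 without Δ*creA*-Δ*clrB* replicate 2, and 5 in a fit of only the compared groups. Whether the effect of the *creA* deletion differs between the 2 backgrounds was not tested here.

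**Figure D5:**
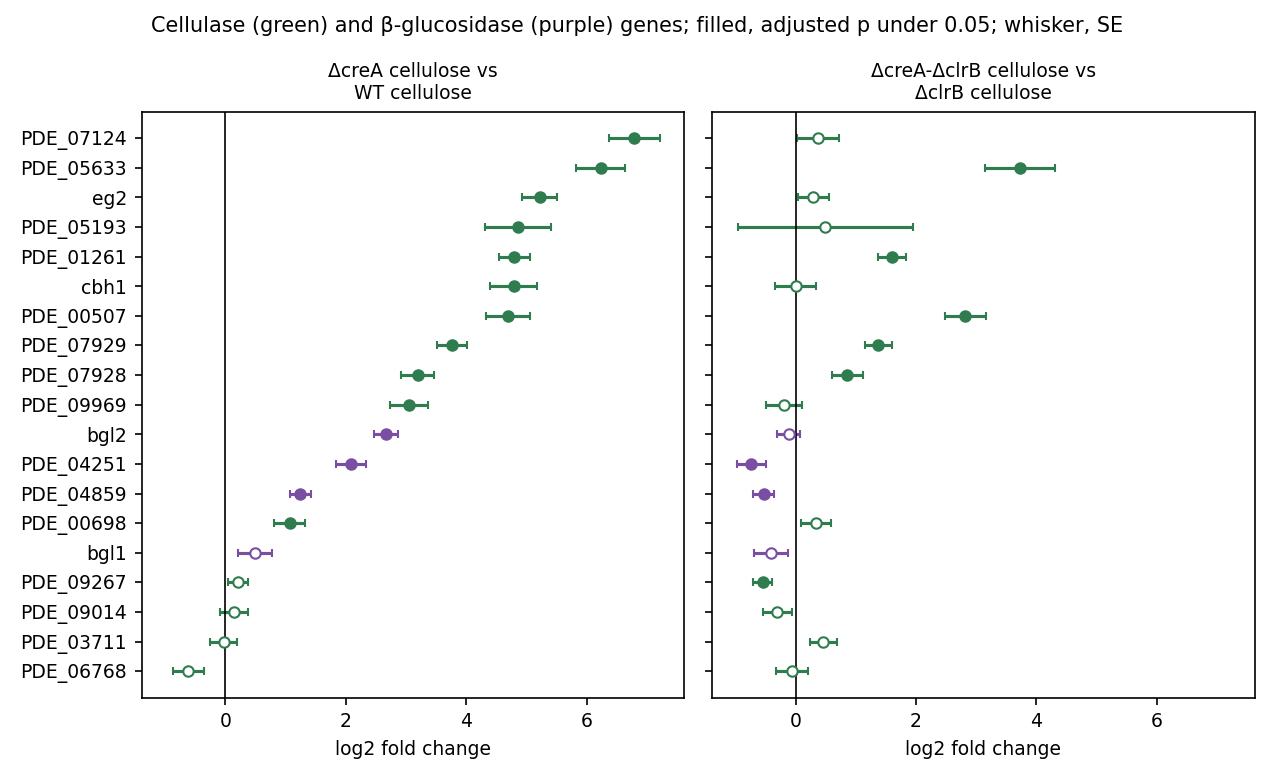
Log2 fold change (x axis, whiskers SE) of 15 cellulase (green) and 4 β-glucosidase (purple) genes (y axis) when *creA* was deleted in wild type (left) and in Δ*clrB* (right); filled points passed at an adjusted p under 0.05. In the left panel 14 genes are filled, up to 6.79, and in the right panel 8, from -0.73 to 3.73.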

How the data were processed

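RNA from 24 cultures was sequenced on an Illumina platform and, per the submitters' processing notes, CASAVA 1.8 was used. The authors mapped the reads with SOAP2 (version not given in the sources used here) to the predicted genes of *P. oxalicum* 114-2 and tested expression with DESeq and NOISeq, none of whose values were used. The deposited table gives unique read counts per gene, without normalization, the authors' RPKM values, which rest on the library totals, and the percent of each gene covered by reads. Lengths are coding lengths. How the counting treated strand is not given.

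The 9176 genes that reached an RPKM of 1 in 3 or more libraries entered 1 edgeR 4.0.16 quasi-likelihood fit of the counts with TMM scaling and 8 group means. A gene passed at a Benjamini-Hochberg adjusted p under 0.05. The common dispersion was 0.0395, and that of *creA* 0.0205, a coefficient of variation of 14.3%. DESeq2 1.42.0 and limma 3.58.1 on log2(RPKM + 1) and log2(RPKM + 0.1), other scalings, no filter, fewer libraries, a replicate block and leaving out each library were alternatives. Scripts were tested on simulated data. Figures were drawn with matplotlib 3.10.9.

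*creA* and the gene lists were chosen with earlier results of these data known. Named were *creA*, the regulators *clrB*, *clrB-2*, *ace1*, *xlnR*, *amyR* and those that passed in at least 3 of 6 comparisons, both adjacent identifiers and neighbours that passed, the 2 highest and lowest enzyme genes per comparison, and the 10 and 5 genes nearest in profile; sequences and a list of other catabolite repression genes were not used here. PDE_07134, PDE_09961, PDE_09023, PDE_00988 and some values of *clrB-2*, *clrB* and *amyR* in the *creA* deletion, and the repeat of PDE_07124, were named after their values were seen. Replicate libraries differed by more than sampling noise, and 0 libraries were left out.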

Additional observations from a re-analysis of the deposited data

How the results depend on the processing

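The comparisons of *creA* that involve glucose, and Δ*amyR* against Δ*clrB*, passed under every alternative. For cellulose against no carbon source *creA* had 0.32 with library totals and 0.32 by limma with a pseudocount of 1 or of 0.1, none of which passed, and 0.41 to 0.58 with single libraries left out. For Δ*clrB* against wild type it passed under 4 of the 15 alternatives: library totals (-0.68), DESeq2 (-0.49), limma on log2(RPKM + 1) (-0.67) and the 15 libraries with *creA* (-0.51). Without single libraries it had -0.56 to -0.39 and never passed. For Δ*amyR* against wild type it did not pass with library totals (0.23) or by limma (0.22 with either pseudocount), and had 0.53 to 0.76 without single libraries. For Δ*amyR* against wild type without carbon source it did not pass by limma on log2(RPKM + 0.1) (0.55). For Δ*clrB* against wild type without carbon source, a pair added after the data were seen, the sign turned with median-ratio scaling (-0.0042), library totals (-0.35), DESeq2 (-0.0042), limma (-0.35 with either pseudocount, passing with 1 at an adjusted p of 0.0268), 2 groups only (-0.0033) and 15 libraries (-0.014), and ran from -0.037 to 0.059 without single libraries. Why the scalings differ was not tested.

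Numbers of other regulators that passed moved for cellulose against no carbon source (7) to 12 with 2 groups and 11 with 15 libraries; for Δ*clrB* (1) to 2 with DESeq2 and 1 to 2 without single libraries; for Δ*amyR* (8) to 3 with library totals, 3 and 3 by limma, 11 with 2 groups, 12 with 15 libraries, and 3 to 8 without single libraries; and for Δ*amyR* against Δ*clrB* (4) to 2 to 4 without single libraries. Neighbours that passed in Δ*creA* (1) numbered 4 with library totals, 5 and 5 by limma and 5 with 2 groups, and in Δ*creA*-Δ*clrB* (4) 1 with 2 groups. Enzyme genes that passed in Δ*creA*-Δ*clrB* (8) numbered 5 with 2 groups and 5 to 9 without single libraries. With a floor of 1 read the deletion bounds were 2430 for Δ*creA* and 2085 for Δ*creA-gpdA*(p)::*clrB*; for the double mutant that floor gives no bound, since it has a library with 2 reads.

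Replicate numbers did not pair the cultures: correlations of the deviations of same-numbered libraries ran from -0.20 to 0.21 in the 18 pairs of the 6 main comparisons, with 3 over 0.1, and the lowest over all 10 comparisons was -0.32. With the replicate block *creA* had -1.50 for glucose and 0.51 for cellulose against no carbon source, 2.01 for cellulose against glucose, -0.49 for Δ*clrB* and 0.64 for Δ*amyR* against wild type and 1.13 for Δ*amyR* against Δ*clrB*, and no call of *creA* changed. Ratios to partner genes cannot change with the scaling. Depth was no limit for *creA*, with 715 reads or more in each library that carries it.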
